A study of Ovis aries with 2 samples.

Results

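The cells described here are anterior pituitary cells of 6-month-old Hu sheep that carried the stem or folliculostellate signature together with transcripts of the interferon-induced chemokines CXCL9, CXCL10 and CXCL11. A barcode entered the stem or folliculostellate gate with at least 500 genes, at least 1000 unique molecular identifiers (UMIs) and at least 3 of the 6 markers SOX2, KRT19, CRYM, CAPN6, TMEM213 and THBS4. PRL had to stay under 25% of its UMIs, GH under 10%, LHB under 0.3% and C1QA, C1QB and C1QC together under 0.1%. Cells of this gate with at least 3 UMIs of the 3 chemokines are called chemokine cells, and cells of the same gate with 0 such UMIs are called chemokine-free cells. Of 13253 cells of the 6-month library that passed the filter on genes and UMIs, 2433 (18.4%) passed the gate, and 192 of these were chemokine cells. A further 263 gated cells had 1 or 2 chemokine UMIs, and 1978 had none. Over both libraries, 29621 cells passed the filter on genes and UMIs.

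The series compared dissociated anterior pituitaries of Hu sheep aged 6 months and 3 months, with 1 droplet library per age. Both ages are of the same breed, and the labels name no genotype, treatment or sex and no number of animals per library. The anterior lobe had been cut from the posterior lobe by eye and digested with collagenase before the cells were strained and red cells lysed. With 1 library per age, age and library cannot be told apart, cells are not replicates, and no test was run: intervals are at 95% and cover counting error only.

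Folliculostellate cells are non-endocrine, agranular cells that form a network between the hormone cells of the anterior lobe, and they overlap with the SOX2-positive stem cells of the gland. They are known as the main pituitary source of interleukin 6. CXCL9, CXCL10 and CXCL11 bind the receptor CXCR3 on activated T and natural killer cells. Interferon gamma, in part through the transcription factor IRF1, is their classical inducer, and it also raises antigen processing and MHC class II genes in many non-immune cells.

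Genes outside the gate were read as a check of the stem or folliculostellate label, and most were found in both sets of gated cells. KRT8 transcripts were found in 98.4% of chemokine cells and 96.0% of chemokine-free cells, and those of the pituitary homeobox gene LHX3 in 93.2% and 87.2%. ALDH1A2, a retinoic acid synthesis enzyme, was found in 83.9% of chemokine cells, 69.2% of chemokine-free cells and 1.31% of PRL-high cells. PRL-high cells are those in which PRL made up at least 40% of UMIs and at most 1 gate marker was detected. Cells with more gate markers were left out of that set beforehand. Low levels of stem or folliculostellate genes there can thus be fixed in part by that choice. In those PRL-high cells KRT8 was found in 51.2% and LHX3 in 70.0%, so detection of either gene does not by itself mark the gated cells. Of 24 further stem or folliculostellate genes in the table, 15 were at least 10-fold higher in CPM (UMIs of a gene scaled to a fixed library total) in chemokine cells than in those PRL-high cells. LHX3, at 5.8-fold, was not among them. Nor was the astroglial marker S100B, with 11.97 CPM in chemokine cells, 7.27 CPM in chemokine-free cells and 37.9 CPM in PRL-high cells.

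Chemokine cells were sequenced more deeply and held more leukocyte transcripts than chemokine-free cells. Their median was 14564.5 UMIs and 4232.5 genes, against 6133.5 UMIs and 2468 genes. All 6 gate markers were detected in 72.9% of chemokine cells and in 40.4% of chemokine-free cells. At least 1 UMI of 7 leukocyte genes (PTPRC, CD53, CD3E, CD3D, CD2, CSF1R, TYROBP) was present in 41 chemokine cells (21.4%; interval 15.8 to 27.8) and 140 chemokine-free cells (7.08%; interval 5.99 to 8.30). With every cell thinned to 2000 UMIs, the shares were 8.90% of 191 chemokine cells and 2.53% of 1898 chemokine-free cells, so the gap was also present at equal depth. Scrublet, a doublet caller, marked 12 chemokine cells (6.25%) and 61 chemokine-free cells (3.08%). PRL took 4.87% of the UMIs of chemokine cells and 2.35% of those of chemokine-free cells. The main comparisons are therefore also given without cells that had any leukocyte UMI (leukocyte-marked cells), which left 151 chemokine cells and 1838 chemokine-free cells. In that subset PRL took 2.79% and 2.43% of UMIs.

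The 3 chemokines defined the cells, so their levels are a description. Together they gave 8328 UMIs in the 192 cells, with 3 in the lowest cell, a median of 15 and 1133 in the highest. CXCL10 contributed 4397 UMIs (52.8%; 1170 CPM), with a median of 4 and a highest value of 704 per cell. CXCL9 contributed 3367 UMIs (40.4%; 896 CPM), with a median of 4.5 and a highest value of 382. CXCL11 contributed 564 UMIs (6.77%; 150 CPM) and was at 0 in the median cell. A few cells thus held much of the signal: the 10 highest carried 40.8% of the UMIs and the 23 highest, those with at least 100 UMIs, carried 59.2%. The 3 genes are neighbours in the ARS-UI_Ramb_v3.0 annotation, where they stand in the order CXCL9, CXCL10, CXCL11 between ART3 and NUP54.

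Chemokine cells did not all carry the same chemokines. All 3 were detected in 38 cells, CXCL9 with CXCL10 in 44, CXCL10 with CXCL11 in 13 and CXCL9 with CXCL11 in 8. CXCL9 was the only one in 49 cells, CXCL10 in 29 and CXCL11 in 11. Among cells with at least 10 chemokine UMIs, CXCL9 made up at least 80% of them in 37 cells, CXCL10 did so in 39, and neither did in 44. The cells led by CXCL10 had 1487 CPM of IRF1, those led by CXCL9 had 527 CPM and those led by neither 1047 CPM. CD74, the MHC class II invariant chain, ran the other way, with 464 CPM in cells led by CXCL10, 1334 CPM in cells led by CXCL9 and 993 CPM in cells led by neither. Without leukocyte-marked cells the same order held, with IRF1 at 1724, 542 and 1219 CPM and CD74 at 495, 966 and 778 CPM. IL6 was at 154, 33.0 and 157 CPM in the 3 sets, in the same order, and the summed gate markers at 2708, 2620 and 2564 CPM. Leukocyte UMIs were present in 10.3% of the CXCL10-led, 16.2% of the CXCL9-led and 40.9% of the other cells.

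The chemokine transcripts were spread over several cell types of the 6-month library. The 192 chemokine cells held 9.20% of its 90518 chemokine UMIs, at 2216 CPM. Cells in which C1Q transcripts, a mark of macrophages, made up at least 0.5% of UMIs (C1Q-high cells) held 46.0%, at 5961 CPM. Cells gated on endothelial genes (at least 3 of PECAM1, CDH5, VWF, KDR and PLVAP, no leukocyte UMI) reached 3352 CPM. Cells gated on T cell genes (at least 2 of CD3D, CD3E, CD3G and CD2, C1Q under 0.1%) reached 543 CPM. All these sets, like the PRL-high cells, were limited to cells with at most 1 gate marker. PRL-high cells were taken as the background of the library, and whether they express these chemokines was not tested. Of them 11.3% had at least 1 chemokine UMI and 2.08% at least 3, at a median depth of 19950 UMIs. In the gated cells the shares were 18.7% and 7.89% at a median depth of 6606 UMIs. After thinning to 2000 UMIs per cell, at least 3 chemokine UMIs were left in 4.09% of gated cells and 0.511% of PRL-high cells. Thinning removed a larger part of the UMIs of the deeper PRL-high cells, stray chemokine UMIs included. The share of gated cells with 3 or more chemokine UMIs was therefore above that of the PRL-high cells at either depth.

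The chemokine makeup of chemokine cells and C1Q-high cells differed by a few percentage points at 6 months and by far more at 3 months. At 6 months CXCL9 made up 40.4% of the chemokine UMIs of chemokine cells (interval 39.4 to 41.5), 43.1% of those of C1Q-high cells (42.6 to 43.5) and 44.2% of those of PRL-high cells (42.5 to 46.0). CXCL10 was 52.8% in chemokine cells (51.7 to 53.9) and 48.4% in C1Q-high cells (47.9 to 48.9). These intervals treat UMIs as independent, whereas 10 chemokine cells held 40.8% of the chemokine UMIs of their set. Whether the shares differ beyond variation between cells was not tested. CXCL9 was 60.9% of the 2659 chemokine UMIs of T cell-gated cells. CXCL11 was 6.77% in chemokine cells (6.24 to 7.33), 8.54% in C1Q-high cells (8.27 to 8.81) and 0.632% in endothelial-gated cells. At 3 months CXCL9 made up 86.7% of the chemokine UMIs of the 34 chemokine cells (83.5 to 89.4) and 13.1% of those of C1Q-high cells (11.8 to 14.5). CXCL10 was 11.6% in these 34 cells and 83.0% in C1Q-high cells. In the 34 cells 209 of the 469 CXCL9 UMIs and 33 of the 63 CXCL10 UMIs each came from 1 cell. The intervals treat UMIs as independent and do not cover this. CXCL9 was detected in 27 of the 34 cells and CXCL10 in 6. UMI counts were not divided by transcript length, so these shares are of molecules counted.

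**Figure D1:**
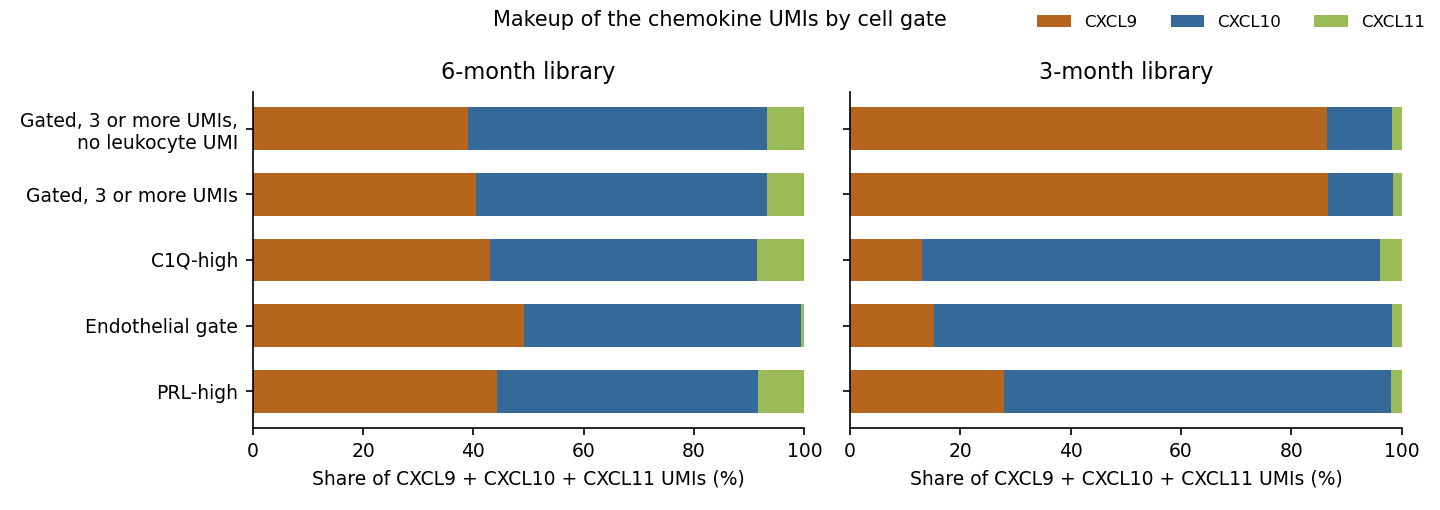
Share of CXCL9, CXCL10 and CXCL11 among the summed chemokine UMIs (%) of 5 sets of cells in the 6-month (left) and 3-month (right) libraries. At 6 months CXCL9 ranged from 38.9% to 49.2% over the 5 sets drawn, and was 60.9% in T cell-gated cells, which are not drawn. At 3 months it was 86.7% in gated cells with 3 or more chemokine UMIs, where 1 cell held 209 of the 541 UMIs, and 13.1% in C1Q-high cells.

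The limit on C1Q shaped the set. A further 80 cells met every other condition of the gate but had 0.1% or more C1Q UMIs; 46 of them (57.5%) had at least 3 chemokine UMIs and 86.3% had a leukocyte UMI. Of the 1821 gated cells with no C1Q UMI at all, 123 (6.75%) were chemokine cells. The threshold of 3 UMIs lay within a continuous range of values. The 20 cells with 3 chemokine UMIs, just inside it, had 615 CPM of IRF1, 256 CPM of the immunoproteasome subunit PSMB9 and 597 CPM of CD74. The 42 cells with 2, just outside it, had 431, 132 and 200 CPM. Among barcodes below the filter on genes and UMIs, 42 had at least 3 gate markers and 0 of these had 3 chemokine UMIs.

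Chemokine cells were scarcer in the 3-month library. There 34 of 5477 gated cells qualified (0.621%; interval 0.430 to 0.866), against 7.89% of gated cells at 6 months (6.85 to 9.03). With cells thinned to 2000 UMIs the shares were 4.09% at 6 months (96 of 2347; 3.33 to 4.97) and 0.241% at 3 months (12 of 4982; 0.125 to 0.420). Without leukocyte-marked cells they were 6.81% and 0.602%. Other cells moved in the same direction. PRL-high cells with at least 3 chemokine UMIs made up 2.08% at 6 months and 0.152% at 3 months, and C1Q-high cells had 5961 and 443 CPM of chemokine transcripts. A total of 81 barcode sequences occurred in both libraries.

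**Figure D2:**
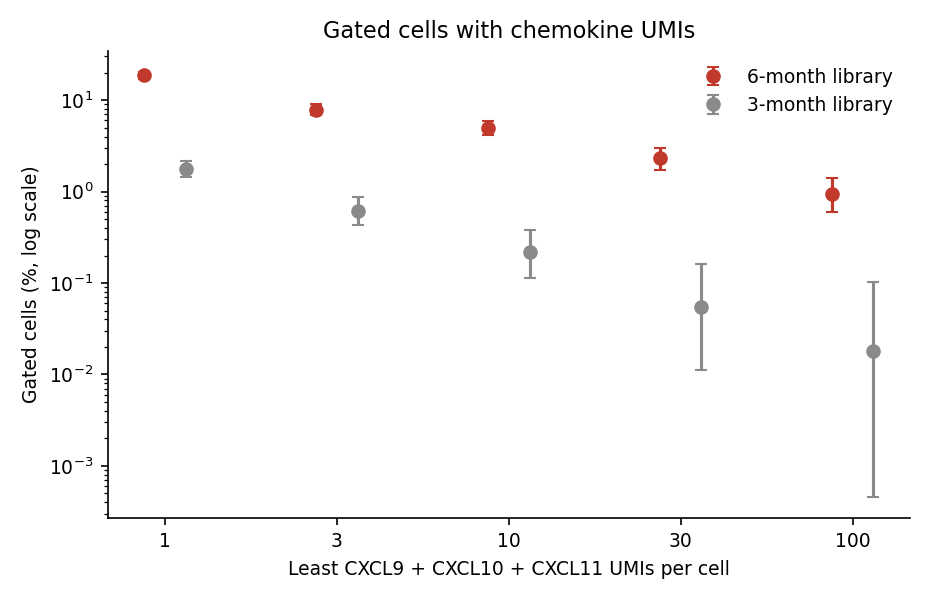
Percentage of gated stem or folliculostellate cells (log axis) with at least 1, 3, 10, 30 or 100 chemokine UMIs in the 6-month (red) and 3-month (grey) libraries, with exact binomial 95% intervals that cover counting error only. At each threshold the 6-month share was higher, with 4.93% against 0.219% at 10 UMIs and 0.945% against 0.0183% at 100 UMIs.

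Counts were summed over the 192 chemokine cells and over the 1978 chemokine-free cells, and 12307 genes with at least 50 UMIs in all were compared as log2 ratios of CPM. A gene is called higher or lower where the ratio was at least 2-fold, the interval lay on one side of 0, and at least 5% of cells in the higher group had a UMI. By that rule 323 genes (2.62%) were higher in chemokine cells, the 3 chemokines of the rule among them, and 115 genes (0.934%) were lower. The median log2 ratio over all genes was -0.11. Without leukocyte-marked cells 206 of 12013 genes were higher (1.71%) and 168 lower (1.4%). Since the cells were chosen by chemokine transcripts of the same libraries, these counts describe the set and support nothing further.

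**Figure D3:**
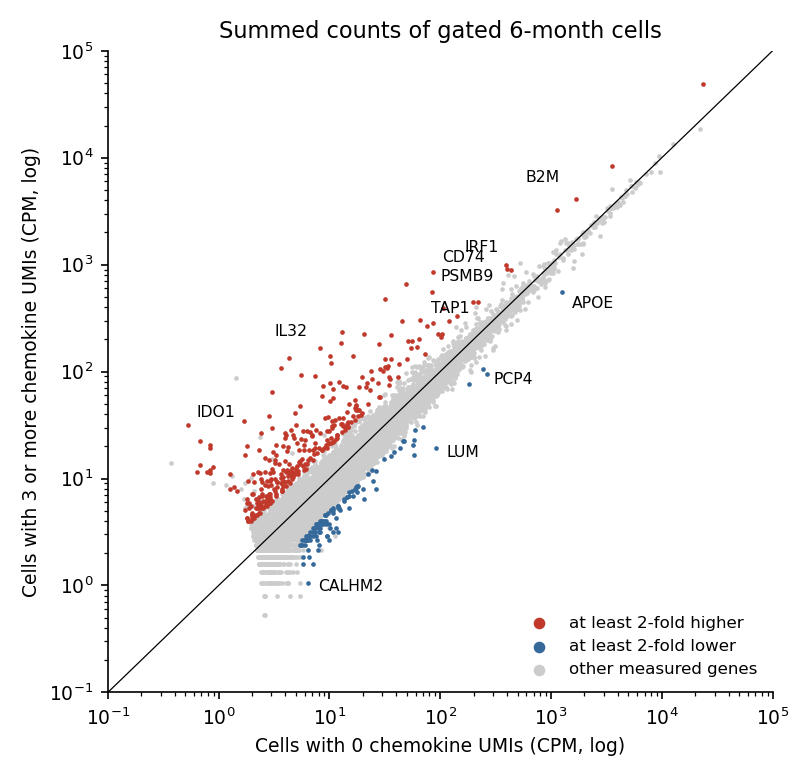
Level of each measured gene in the 192 chemokine cells (vertical) and the 1978 chemokine-free cells (horizontal) of the 6-month library, in CPM on log axes, with the line of equality. Genes called higher are red (323, the 3 chemokines themselves not drawn because their level in chemokine-free cells is 0) and genes called lower are blue (115).

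Interferon gamma response genes were higher as a group. Of 41 genes listed, 23 were measured, 17 were called higher and 0 lower, with a median log2 ratio of 1.46. Without leukocyte-marked cells 14 of 22 were higher, with a median of 1.38. Summed over the list, single chemokine cells had between 4.88 and 158 UMIs per 10000 with a median of 42.6, and single chemokine-free cells had between 0 and 95.3 with a median of 18.5. The ranges overlapped widely, and 7.28% of chemokine-free cells lay above the median of the chemokine cells.

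Transcriptional regulators of the response were among the genes called higher. IRF1 had 909 CPM in chemokine cells and 398 CPM in chemokine-free cells (log2 ratio 1.19; interval 1.13 to 1.25), and it was detected in 90.1% and 61.8% of them. Per cell, IRF1 had a lowest value of 0, a median of 8.15 and a highest value of 50.6 UMIs per 10000 in chemokine cells, against 0, 1.95 and 39.4 in chemokine-free cells. CIITA, the master activator of MHC class II genes, had 11.97 and 0.843 CPM (3.83; 2.98 to 4.75). Without leukocyte-marked cells IRF1 was at 1037 and 396 CPM (1.39), and CIITA, at 4.28, no longer had enough UMIs to be measured. Both groups overlapped in IRF1, with 13.8% of chemokine-free cells above the chemokine cells' median.

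Among the effector genes IDO1, which breaks down tryptophan, had the largest ratio of the named genes outside the rule. It was at 31.4 CPM in chemokine cells and 0.527 CPM in chemokine-free cells (5.90; 4.97 to 6.99), but in only 9.38% of chemokine cells, and 21.2% of its UMIs came from 1 cell. WARS1, the tryptophan tRNA synthetase, had 140 and 16.5 CPM (3.09; 2.88 to 3.29) and was detected in 52.6% and 12.8% of cells. CD274, which encodes the T cell inhibitory ligand PD-L1, had 26.6 and 2.42 CPM (3.46; 2.94 to 3.99). The death ligand TNFSF10 had 47.6 and 5.37 CPM (3.15; 2.79 to 3.51). ICAM1, an adhesion molecule for leukocytes, had 333 and 143 CPM (1.22; 1.12 to 1.32). SOCS3, a feedback inhibitor of cytokine signalling, was not called, at 903 and 883 CPM (0.03; -0.02 to 0.09), nor was SOCS1, at 125 and 88.1 CPM (0.51; 0.36 to 0.66). All of these called genes stayed at least 2-fold higher in ratio without leukocyte-marked cells, between 1.37 for ICAM1 and 4.99 for IDO1.

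Antigen processing and presentation genes were the second group. Of 24 measured, 13 were higher and 0 lower, with a median of 1.26; without leukocyte-marked cells 15 of 23 were higher, with a median of 1.31. Single chemokine cells had 20.3 to 481 UMIs of the list per 10000 with a median of 84.9, against 0 to 197 with a median of 32.0 in chemokine-free cells. Of the chemokine-free cells 4.25% lay above the median of the chemokine cells.

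Genes of the class I pathway were detected in most chemokine cells. PSMB9 had 560 CPM in chemokine cells and 85.0 CPM in chemokine-free cells (2.72; 2.63 to 2.81), and was detected in 88.5% and 37.2%. The peptide transporter subunit TAP1 had 307 and 65.9 CPM (2.22; 2.10 to 2.33). B2M, the light chain of class I molecules, had 4129 and 1680 CPM (1.30; 1.27 to 1.33) and was detected in 100% and 97.9% of cells. Without leukocyte-marked cells the ratios were 2.91 for PSMB9, 2.38 for TAP1 and 1.39 for B2M. The chaperones of the endoplasmic reticulum that also serve other proteins were level: CALR had 719 and 713 CPM (0.01; -0.05 to 0.07) and CANX 223 and 223 CPM (0.00; -0.11 to 0.11).

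Class II genes were higher as well. CD74 had 850 CPM in chemokine cells and 86.9 CPM in chemokine-free cells (3.29; 3.20 to 3.38), detected in 84.9% and 28.5%. LOC101109747, for which the reference table gives the synonym DRA, had 661 and 49.4 CPM (3.74; 3.63 to 3.85). DQA had 185 and 12.7 CPM (3.87; 3.65 to 4.08). Part of these levels came with the leukocyte-marked cells. Without them CD74 was at 646 and 73.3 CPM (3.14), LOC101109747 at 323 and 35.2 CPM (3.20) and DQA at 68.9 and 9.05 CPM (2.93), so each remained at least 2-fold higher. The C1Q-high cells had 9309 CPM of CD74.

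Of 28 measured type I interferon-stimulated genes, 14 were higher and 0 lower, with a median of 1.01, and 14 of 27 were higher without leukocyte-marked cells. ISG15, an antiviral ubiquitin-like protein, had 201 CPM in chemokine cells and 64.5 CPM in chemokine-free cells (1.64; 1.51 to 1.77). The antiviral GTPase MX2 had 71.0 and 21.5 CPM (1.72; 1.49 to 1.95). IFI6 was not called, at 621 and 885 CPM (-0.51; -0.58 to -0.45). Without leukocyte-marked cells these ratios were 1.68, 1.71 and -0.43. The cells' medians for the list were 20.7 UMIs per 10000 in chemokine cells and 14.8 in chemokine-free cells, and 29.1% of chemokine-free cells exceeded the median of the chemokine cells.

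The receptors and transducers that carry the interferon signal were nearly level. Of 15 measured, only IRF4 was called higher, at 10.9 and 2.05 CPM (2.41; 1.74 to 3.08), and it was not called without leukocyte-marked cells (0.86). Over all measured genes 2.62% were called higher, and the median log2 ratio of these 15 was 0.11. The interferon gamma receptor chain IFNGR2 had 80.4 CPM in chemokine cells and 68.6 CPM in chemokine-free cells (0.23; 0.04 to 0.41), and the kinase JAK1 had 215 and 223 CPM (-0.05; -0.17 to 0.05). IFNG itself had 0 UMIs in the 192 chemokine cells, while T cell-gated cells of the same library had 220 UMIs, in 14.8% of them. CXCR3 had 4 UMIs in the chemokine cells and 193 UMIs in the T cell-gated cells.

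**Figure D4:**
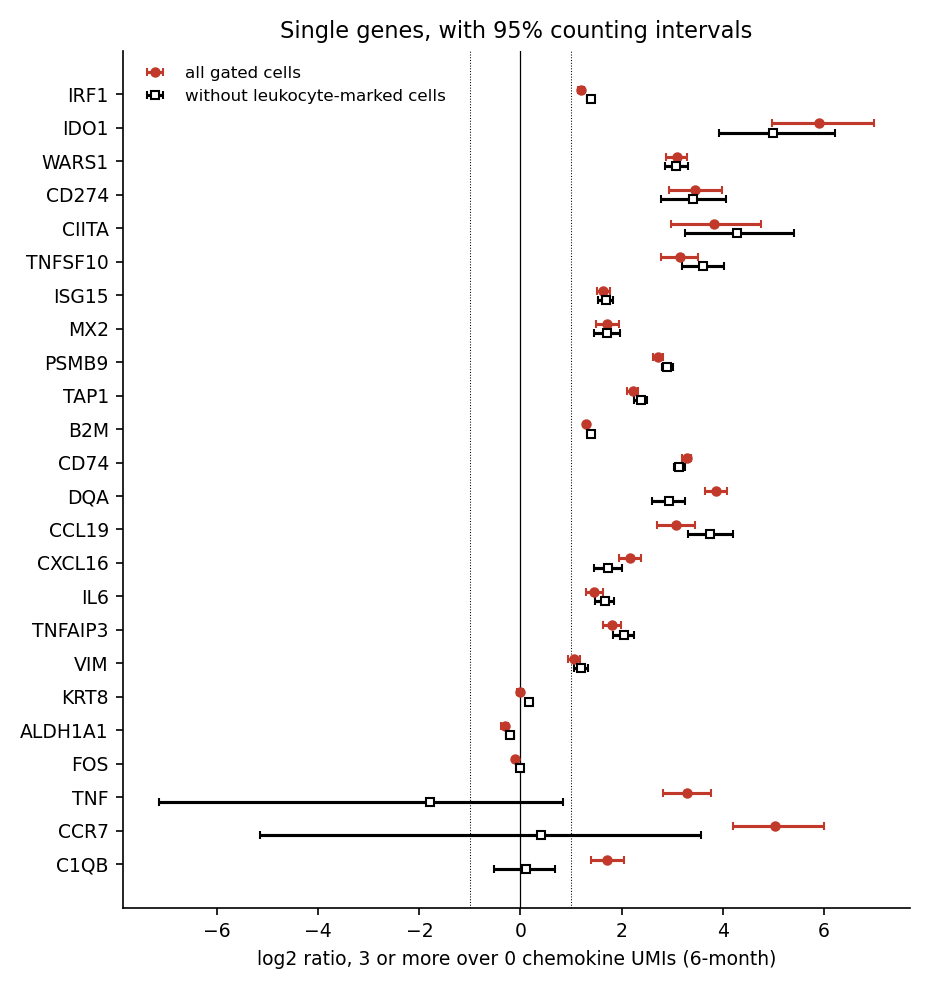
Log2 ratios of CPM in chemokine cells over chemokine-free cells of the 6-month library for 24 genes, over all gated cells (red) and without leukocyte-marked cells (open squares), with 95% counting intervals. Dotted lines mark a 2-fold difference. Interferon and antigen presentation genes stayed right of the line in both sets, whereas TNF, CCR7 and C1QB did so only with leukocyte-marked cells. TNF, CCR7 and CIITA had too few UMIs to be measured without leukocyte-marked cells.

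Targets of NF-kB, the other main route of inflammatory gene expression, differed in fewer members and in part through leukocyte-marked cells. Of 24 measured, 10 were higher, with a median of 0.68, and 6 of 22 were higher without those cells. TNFAIP3, a feedback inhibitor of the pathway, had 111 CPM in chemokine cells and 31.5 CPM in chemokine-free cells (1.81; 1.63 to 2.00). RELB had 43.9 and 18.2 CPM (1.27; 0.99 to 1.54), and SOD2, a mitochondrial superoxide dismutase, 448 and 197 CPM (1.19; 1.10 to 1.27). These 3 genes kept ratios of 2.05, 1.38 and 1.32 without leukocyte-marked cells. TNF had 29.8 and 3.05 CPM (3.29) over all cells, 47.3% of it from 1 cell. Without leukocyte-marked cells TNF had 1 and 23 UMIs (-1.79; -7.15 to 0.84), too few to be measured. IL1A had 2.00 over all cells and -0.11 without leukocyte-marked cells.

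IL6 was higher in a minority of the chemokine cells. It had 118 CPM in chemokine cells and 42.8 CPM in chemokine-free cells (1.46; 1.29 to 1.63), detected in 21.4% and 7.13% of them. Without leukocyte-marked cells it was at 139 and 43.6 CPM (1.67). The gated cells held 1346 of the 1635 IL6 UMIs of the filtered 6-month library. IL6 was the only one of 18 measured folliculostellate secreted factors called higher both with and without leukocyte-marked cells. SPP1 was called over all cells (1.64) and not without them (-0.35). IGFBP5, an abundant binding protein of insulin-like growth factors, had 3368 and 3281 CPM (0.04; 0.01 to 0.07), and the prostaglandin synthase PTGES had 88.9 and 57.3 CPM (0.63; 0.45 to 0.81).

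Other chemokines could be read only in part. Of 26 listed, 16 were found in the table by symbol and 8 were measured, of which CCL19 and CXCL16 were called higher. CCL19, a ligand of CCR7 on T and dendritic cells, had 41.2 CPM in chemokine cells and 4.90 CPM in chemokine-free cells (3.07; 2.69 to 3.46), with 27.1% of its UMIs from 1 cell. The transmembrane chemokine CXCL16 had 88.3 and 19.5 CPM (2.18; 1.96 to 2.39). Both remained called without leukocyte-marked cells, at 3.75 and 1.73. CXCL8, a neutrophil attractant, had 44.7 and 45.7 CPM (-0.03; -0.28 to 0.21). Of 11 measured complement and epithelial defence genes 4 were higher, namely C2 (1.59), CFI (1.34), C3 (1.17) and C1S (1.10), the same 4 in the subset without leukocyte-marked cells.

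Few genes of stem and tissue programmes were called in either direction. Over all 12307 measured genes only 2.62% were called higher and 0.934% lower. At that share lists of this size would hold few called genes, so the counts are not read as a result about these programmes. None of the 6 gate markers was called, with SOX2 at 307 CPM in chemokine cells and 314 CPM in chemokine-free cells (-0.04; -0.13 to 0.05) and CRYM, a thyroid hormone binding protein, at 861 and 594 CPM (0.54; 0.48 to 0.59). Without leukocyte-marked cells their ratios were 0.13 and 0.77. Of 22 measured stem or folliculostellate genes outside the gate, VIM, an intermediate filament gene, was called higher, at 213 and 102 CPM (1.06), and at 225 and 98.1 CPM (1.19) without leukocyte-marked cells. KRT8 had 839 and 846 CPM. Other members were lower by less than 2-fold: HES1 had 494 and 769 CPM (-0.64; -0.71 to -0.57), SOX9 58.5 and 92.3 CPM. ALDH1A1 had 557 and 691 CPM (-0.31; -0.38 to -0.24). Over the 22 genes the median log2 ratio was -0.08. Over all cells no gene was called in either direction among 24 measured Notch, Wnt and Hippo genes, 26 matrix and adhesion genes, 20 cell cycle genes or 26 immediate early and dissociation genes. Without leukocyte-marked cells 1 of 25 matrix and adhesion genes was called higher, fibronectin (FN1), at 6.23 and 2.33 CPM (1.42). So was 1 of 26 immediate early genes, FOSL1, at 36.6 and 15.5 CPM (1.24). Both are named here after their values were seen, and they had 0.93 and 0.97 over all cells. None of the 24 Notch, Wnt and Hippo genes or of the 20 cell cycle genes was called in that subset. The summed immediate early list had 25761 CPM in chemokine cells and 26102 CPM in chemokine-free cells. Of 16 measured metabolic response genes 3 were higher, IDO1, TAP1 and the lactate dehydrogenase gene LDHA (1.78), the same 3 without leukocyte-marked cells. Of 17 measured cell death genes, PMAIP1, FAS and RIPK3 were higher, and of these only the death receptor gene FAS, at 14.6 and 3.95 CPM (1.89), stayed called without leukocyte-marked cells.

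Markers of other cell types were higher in the chemokine cells over all cells. The 7 genes used to mark and remove cells are themselves members of the macrophage, pan-leukocyte and T or NK lists, so part of the fall of these lists without leukocyte-marked cells is fixed by the removal. Of 8 measured macrophage markers 7 were higher over all cells and 0 of 6 without leukocyte-marked cells, and the summed list had 204 CPM in chemokine cells and 67.2 CPM in chemokine-free cells over all cells, and 47.9 and 55.5 CPM without them. The 13 macrophage markers not used in the removal summed to 176 and 61.9 CPM over all cells, and to the same 47.9 and 55.5 CPM without the marked cells. Of these 13, 5 were at 0 in the 151 remaining chemokine cells, while C1QC, which the gate limits, was at 10.5 and 9.40 CPM. Over all cells 5 of 8 measured pan-leukocyte genes, 1 of 8 T or NK markers, 3 of 3 B or plasma markers and 2 of 2 dendritic cell markers were called higher. Pan-leukocyte genes summed to 193 and 79.6 CPM over all cells and to 42.4 and 48.5 CPM without the marked cells, T or NK markers to 79.0 and 37.0 CPM and to 7.79 and 11.9 CPM, and B or plasma markers to 49.2 and 10.9 CPM and to 7.79 and 8.99 CPM. The genes of the first 2 of these lists that were not used in the removal summed over all cells to 162 and 72.0 CPM for pan-leukocyte genes and to 66.0 and 31.9 CPM for T or NK markers. Dendritic cell markers summed to 54.8 and 3.69 CPM over all cells and 14.4 and 1.87 CPM without the marked cells. Without the marked cells BATF3 kept a ratio of 3.41. CCR7, at 5.05 over all cells, then had 1 and 5 UMIs (0.42), too few to be measured. Of the 12 higher named genes ranked first by their interval bound, CCR7, CD86 and SLAMF7 are known as leukocyte genes. Without leukocyte-marked cells CD86 (4.18 over all cells) was at 0.42 from 1 and 5 UMIs. SLAMF7 (3.86 over all cells) was at 1.32 from 3 and 8 UMIs, so neither gene was measured there.

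Endothelial markers summed to 79.8 CPM in chemokine cells and 40.1 CPM in chemokine-free cells, and to 84.9 and 39.1 CPM without leukocyte-marked cells, with 2 of 8 called higher over all cells. Of the PLVAP UMIs in chemokine cells 61.2% came from 1 cell. Fibroblast and mural markers summed to 327 and 462 CPM, with 1 of 8 called lower, and to 338 and 463 CPM without leukocyte-marked cells, with 1 of 7 called lower. Among hormone genes PRL (1.05) and GH (1.53) were called higher over all cells, and 37.6% of the GH UMIs came from 1 cell. Without leukocyte-marked cells PRL was at 0.20 and GH at -0.25. The part of such admixed transcripts in the interferon and antigen presentation results was not tested beyond the subset without leukocyte-marked cells, in which the medians of these lists were 1.38 and 1.31.

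Among the lists, LUM was the only gene called lower in chemokine cells, and the other lower genes named here stood outside them. LUM, a matrix proteoglycan, had 19.2 CPM in chemokine cells and 91.2 CPM in chemokine-free cells (-2.25; -2.61 to -1.91). APOE, a lipid carrier, had 559 and 1255 CPM (-1.17; -1.23 to -1.10), and PCP4, a calmodulin-binding protein, 105 and 241 CPM (-1.20; -1.35 to -1.05). GFRA1, a co-receptor for GDNF, had 22.9 and 58.6 CPM (-1.36; -1.69 to -1.04), and RYR2, a calcium release channel, 7.98 and 26.5 CPM (-1.73; -2.31 to -1.20). Detection of LUM was 19.3% of chemokine cells and 27.4% of chemokine-free cells, whereas APOE was detected in 78.1% and 69.9%. Without leukocyte-marked cells all 5 kept ratios between -2.56 for LUM and -1.11 for APOE.

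Levels of the interferon-linked genes differed over bins of cells by chemokine UMIs, the measure that also defined the set. IRF1 was at 398 CPM in cells with 0 chemokine UMIs, 423 CPM with 1 to 2, 653 CPM with 3 to 9, 716 CPM with 10 to 29 and 1406 CPM with 30 or more. PSMB9 was at 85.0, 129, 341, 394 and 988 CPM, and WARS1 at 16.5, 27.0, 45.4, 87.9 and 301 CPM. Of the summed lists, antigen presentation genes also rose at each step, at 3640, 4132, 7286, 8199 and 11944 CPM. Interferon gamma response genes did not, at 2282, 2409, 3541, 3529 and 5737 CPM. Type I genes were at 1736, 1647, 1934, 1703 and 3077 CPM, well above the first bin only in the last. The summed gate markers were not ordered over the bins, at 2501, 2393, 2787, 2545 and 2694 CPM. APOE was at 1255, 1141, 836, 291 and 613 CPM, so it was lowest in the fourth bin and not in the last. PCP4 was at 241, 182, 165, 83.7 and 71.0 CPM. The bins held 1978, 263, 72, 64 and 56 cells, with median depths of 6133.5, 9829, 12895.5, 15815 and 15226.5 UMIs, so depth differed little among the last 2 bins.

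Within the 192 chemokine cells the chemokine level per 10000 UMIs had a Spearman correlation across cells of 0.51 with the interferon gamma response list, 0.58 with the antigen presentation list and 0.37 with the type I list. Over the 151 cells without leukocyte UMIs these were 0.46, 0.60 and 0.34. The cells share 1 library, and chemokine level itself fell with depth across them, at a correlation of -0.40. The gate markers gave 0.11.

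**Figure D5:**
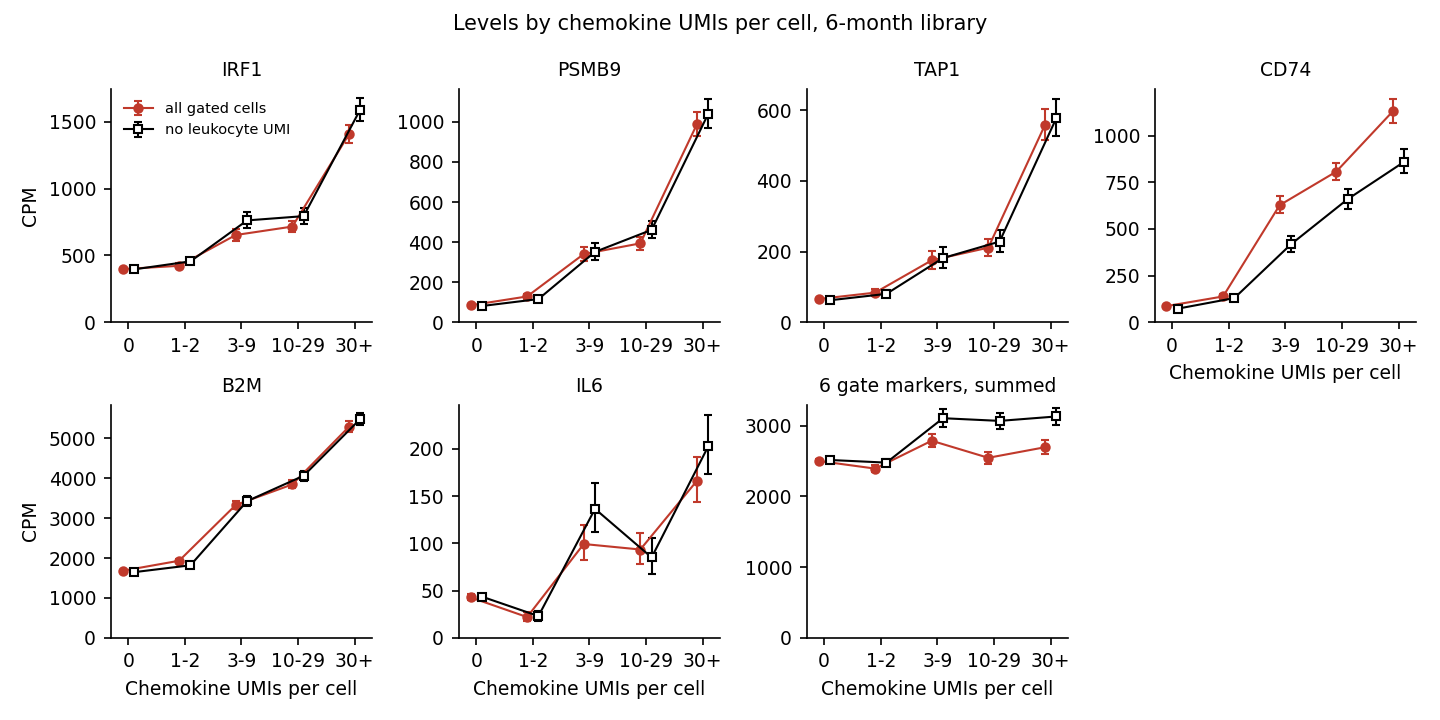
Level in CPM of 6 genes and of the 6 gate markers summed, over gated 6-month cells grouped by chemokine UMIs per cell, for all cells (red) and for cells without leukocyte UMIs (open squares), with exact Poisson 95% intervals. IRF1, PSMB9, TAP1, CD74 and B2M were highest in the last bin in both sets, and the gate markers were between 2393 and 2787 CPM over all cells.

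The 34 chemokine cells of the 3-month library, chosen by the same gate and the same threshold of chemokine UMIs, showed part of the same pattern. Since chemokine transcripts chose these cells too, the counts describe them and are no independent support. Set against the 5380 chemokine-free cells of that library, 162 of 12877 genes were higher (1.26%) and 221 lower (1.72%). Without leukocyte-marked cells 172 of 12800 were higher (1.34%) and 230 lower (1.8%). Only 2 of these 34 cells had a leukocyte UMI. Of 22 measured interferon gamma response genes 10 were higher, with a median of 1.02, as were 11 of 23 antigen presentation genes (median 1.05), 8 of 27 type I genes (median 0.67) and 3 of 24 NF-kB targets (median 0.02). IRF1 had 196 CPM in chemokine cells and 65.7 CPM in chemokine-free cells at 3 months (1.58), PSMB9 412 and 60.4 CPM (2.77), TAP1 122 and 27.8 CPM (2.13), and CD74 194 and 26.3 CPM (2.88). IDO1 had 0 UMIs in the 34 cells.

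Across all genes, 68 were called higher in both libraries, which is 25.3% of the 269 genes called at 6 months and measured at 3 months, and 44.4% of the 153 genes called at 3 months and measured at 6 months. CXCL9 and CXCL10, which the rule used, are among the 68, the 269 and the 153. Of the 269, 163 had the same sign at 3 months. Among genes called lower at 6 months, 5 of 115 were also lower at 3 months, and 70 had the same sign. The median log2 ratio over all measured genes at 3 months was -0.11, so most genes had that sign. The share of all genes with the same sign in both libraries was not counted, so neither count of signs is read as agreement. LUM, APOE and PCP4 were called lower in both, with -1.07, -1.38 and -1.04 at 3 months. The libraries differed in the chemokine-free cells as well, where IRF1 was at 398 CPM at 6 months and 65.7 CPM at 3 months (log2 ratio of ages 2.60; 2.53 to 2.67), CD74 at 86.9 and 26.3 CPM (1.73) and IL6 at 42.8 and 7.22 CPM (2.57). The difference between ages cannot be told apart from that between libraries.

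Of the 323 higher genes 68 had placeholder symbols with no name in the reference table, and their order in the annotation showed where several stood together. Between KYAT3 and LRRC8B all 7 measured placeholders were higher, with log2 ratios from 2.55 to 4.95, and 2.90 to 5.16 without leukocyte-marked cells. Between CCL1 and SPACA3 both measured placeholders were higher (3.46 and 3.80; 3.43 and 4.92 without leukocyte-marked cells), although 80.5% of the UMIs of one came from 1 cell. Between HEATR6 and CCL16, 2 of 5 were higher (1.91 and 1.93), and these 2 had 0.23 and 0.42 without leukocyte-marked cells. Between MCCD1 and POU5F1, 5 of 6 were higher (1.32 to 2.34), and between PSMB9 and BRD2 both measured ones were (3.06 and 3.62). Reads of closely similar neighbours can be split between them in counting, so single placeholders are not named.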

How the data were processed

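Single-cell libraries of the anterior pituitary of Hu sheep, 1 at 6 months and 1 at 3 months, were analysed from UMI counts per gene and barcode that the authors deposited without normalization. They held 15031 and 18961 barcodes, with 175239612 and 142479651 UMIs. Counting used Cell Ranger, version 5.0.0 per the submitters' processing notes and 5.0.1 per the file headers. The labels and headers used here name no genome build. The other deposited files list gene symbols with identifiers, and barcodes. Of 23141 identifiers 22726 (98.2%) matched a RefSeq gene table of ARS-UI_Ramb_v3.0, used for names and gene order only, which replaced 439 placeholders.

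Counts were summed per group and scaled to CPM on UMI totals. Ratios have exact conditional binomial intervals and shares exact Clopper-Pearson intervals, at 95%. These treat UMIs as independent and leave out variation between cells, animals and preparations. A gene at 0 in 1 group was set to a floor of 3 counts over that group. No test was possible with 1 library per age, and edgeR was used only for TMM effective library sizes (edgeR 4.0.16, R 4.3.3). Scrublet ran in scanpy 1.11.5 with seed 0, and doublets were kept except in an alternative. Thinning drew 2000 UMIs per cell without replacement, with seed 1. The contrast was tested on simulated data. Named genes were the rule genes, the 12 higher and 12 lower named genes with the interval bound farthest from 0, and the called members of largest ratio and most abundant uncalled members of 26 lists; of 511 list genes, 451 were in the table. A few single-gene values are left out. The text gives part of these, and a few members outside that rule for contrast. Posterior or intermediate lobe markers gave no measured gene. The members and lists were chosen with earlier results of these data known. Alternatives changed the chemokine threshold, gate, depth, doublets, leukocyte-marked cells, scaling and count minimum.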

Additional observations from a re-analysis of the deposited data

Results flagged for a closer look

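Between the libraries 8 genes were called in opposite directions: MGP, PLVAP, RAMP2, GH, VIM, DNASE1L3, CLEC3B and SRGN. The contrast of chemokine cells with chemokine-free cells had opposite directions in the 6-month and 3-month libraries for 3 of the named genes, and these differences between libraries were not tested. VIM had a log2 ratio of 1.06 at 6 months and -1.34 at 3 months. PLVAP, an endothelial gene, had 1.17 at 6 months, with 61.2% of its UMIs in chemokine cells from 1 cell, and -2.65 at 3 months. GH had 1.53 at 6 months, with 37.6% of its UMIs from 1 cell, and -1.49 at 3 months. The summed endothelial markers moved with PLVAP, at 79.8 CPM in chemokine cells and 40.1 CPM in chemokine-free cells at 6 months and at 47.2 and 212 CPM at 3 months, and their part in the VIM values was not tested.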

How the results depend on the processing

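No paired analysis was possible because each age had 1 library. The share of gated cells with chemokine (7.89%) was 18.7% at a threshold of 1 UMI, 6.62% at 5, 4.93% at 10, 4.09% after thinning and 6.81% without leukocyte-marked cells. The 323 higher genes were 147 at a threshold of 1 UMI, 162 after thinning (90 of them also called at full depth), 206 without leukocyte-marked cells and 149 with at least 200 UMIs per gene. The 115 lower genes were 3 at 1 UMI, 225 at 10 UMIs, 202 with the mean of per-cell CPM and 55 with at least 200 UMIs; after thinning 145 were lower, 10 of them also called at full depth. Of the 17 higher interferon gamma response genes 8 were higher at a threshold of 1 UMI.

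Signs reversed without leukocyte-marked cells for TNF (-1.79), IL1A (-0.11), SPP1 (-0.35), FCER1G (-0.72), SPI1 (-0.56), JCHAIN (-0.78) and GH (-0.25). The TNF value rested on 1 and 23 UMIs, too few to be measured. With PRL under 10% SPP1 was at -0.43 and GH at -0.37, GH was at -0.18 with members chosen per UMI, JCHAIN at -0.30 without Scrublet doublets, and PLVAP at -0.071 without the 10 members of most chemokine UMIs, an alternative chosen after seeing the data. The cause was not tested. Of 74 called named genes 43 stayed called at 1 UMI, 63 without doublets, 64 with PRL under 10% and 68 without those 10 members; 42 of 70 did so without leukocyte-marked cells. After thinning, 33 had enough UMIs and 25 stayed called. Scaling by TMM shifted all log2 ratios by 0.083, and no named gene changed sign under it. At 3 months, alternatives added after seeing the data gave 172 higher genes without leukocyte-marked cells and 135 at a threshold of 1 UMI, against 162. Depth limited genes of low count: the 34 cells of the 3-month library held 402447 UMIs, so a gene at 0 there may still be expressed.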
